A study of Mus musculus with 12 samples.

Results

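The effect of follistatin on the transcriptional response to activin A was examined in bone marrow-derived macrophages (BMDMs) by comparing cells that received activin A alone (Act) with cells that received activin A together with FST288 (Act + FST). Genes entered when their normalized counts averaged 5 or more across the 12 libraries of the series, which gave 14318 of 18376 genes listed, and 6 of the 12 libraries enter the comparison directly. Bone marrow progenitors of adult WT C57BL6/J mice were grown with 50 ng/ml mouse M-CSF in every group for 6 days. CTRL cells were not stimulated further, activin A was added at 50 ng/ml in Act and in Act + FST, and FST288 was added at 250 ng/ml in FST and in Act + FST. Each of the 4 groups had 3 libraries, numbered 1 to 3 in the labels. The labels do not say whether the numbers stand for separate mice or cultures, so that p-values measure the spread between these libraries, which may be technical. The values are read counts per gene that the authors scaled by a factor for each library and rounded (normalized counts), and the totals per library lay between 5643708 and 5955400.

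Activins are dimeric ligands of the TGF-β family that assemble type II and type I serine/threonine kinase receptors, whose activated complex phosphorylates SMAD2 and SMAD3. These move with SMAD4 to the nucleus, where they act on genes that include inhibitors of the same pathway. Follistatin is a secreted glycoprotein that wraps around activin and blocks the surfaces through which the ligand would contact its receptors, and FST288 is the isoform that binds strongly to heparan sulphate at the cell surface.

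All 10 macrophage markers examined, among them *Csf1r*, were expressed, and none of them was called in Act versus Act + FST. Their summed normalized counts ranged from 14754 to 16275 in CTRL, from 15395 to 16455 in Act and from 14651 to 15774 in Act + FST. Replicate 3 of Act + FST stood apart from the other libraries in genes of proliferation and of sterol synthesis. Its 40 cell cycle genes summed to 18180 normalized counts, whereas the other 8 libraries without activin A or with FST288 lay between 11173 and 13223. Replicate 2 of CTRL was higher than the other CTRL libraries in several of the most responsive genes, for example in *Olfml3*, with 142 normalized counts against 22 and 8. Among 8 monocyte markers *Fn1* was called, and *Ccr2* and *F13a1* were higher in Act by the adjusted p alone (0.75 and 0.35). The summed level of this list was 1580 to 2580 in CTRL, 3046 to 3266 in Act and 1673 to 2882 in Act + FST, and its part in the results was not tested. Fewer cells of a type and less RNA per cell cannot be told apart in these bulk libraries.

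Differences were estimated with limma on log2(normalized count + 1), with the replicate number as a block. A gene was called when it passed a 2-fold difference with an adjusted p of at most 0.05. Log2 fold changes are given as Act minus Act + FST, so that positive values are genes that were higher without FST288. On this scale 426 genes were higher in Act (2.98% of those tested) and 500 were lower (3.49%), which is 6.47% in either direction. The counts for the gene lists below are to be read against these shares. The median absolute log2 fold change of the called genes was 1.54 for those higher and 1.49 for those lower in Act. The tails were uneven, as 41 genes were at least 8-fold higher in Act and 16 at least 8-fold lower. All 3 same-numbered pairs of libraries had the same direction in 424 of the 426 genes and in 497 of the 500, a count that the selection of the genes favours. The 3 libraries of both groups did not overlap in 409 and 464 of them, against 34.1% of all genes tested. For most genes named by rule (see How the data were processed), no overlap was a condition of being named and is not a separate result. Without replicate 3 of Act + FST, the counts were 393 and 448.

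**Figure D1:**
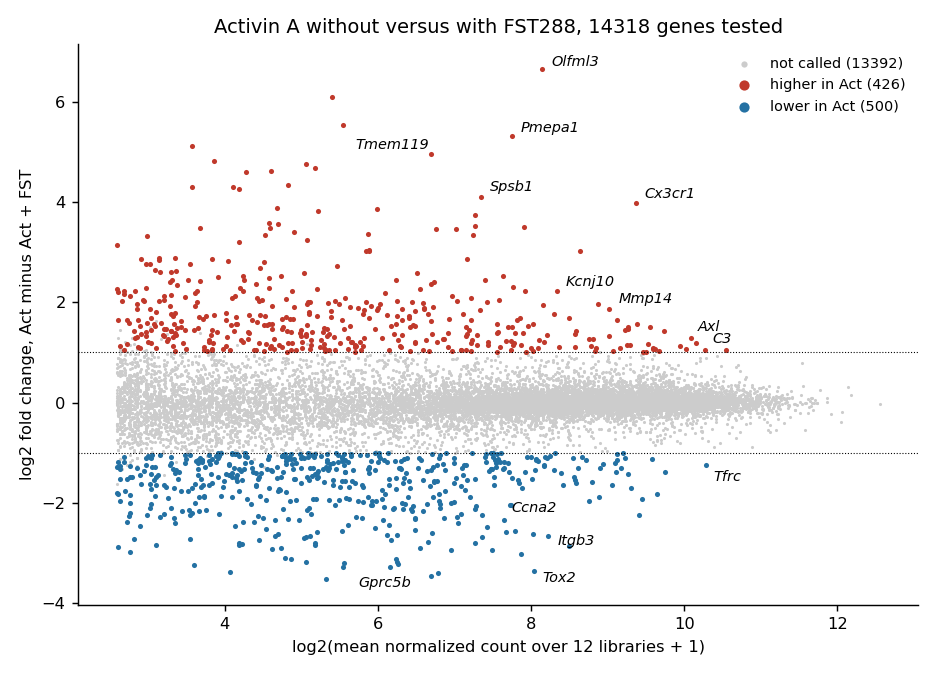
Each point is 1 of the 14318 genes tested, with its mean normalized count over 12 libraries on the x axis (log2 scale) and the log2 fold change of Act minus Act + FST on the y axis. Red points are the 426 genes called higher in Act, blue points the 500 called lower, and dotted lines mark a fold change of 2. With a mean of at least 50, the differences reached 6.65 upwards (*Olfml3*) and −3.47 downwards (*Gprc5b*).

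The called genes differed far less between Act + FST and CTRL. The mean of Act + FST was within the range of the 3 CTRL libraries for 235 of the 426 genes higher in Act and for 219 of the 500 genes lower in Act, and the same was true of 66.9% of all genes tested. Only 6 genes (0.0419%) were called in Act + FST versus CTRL, compared with 902 genes (6.3%) in Act versus CTRL. For the 426 genes higher in Act, the median log2 difference from CTRL was 1.47 in Act and −0.10 in Act + FST. For the 500 genes lower in Act, the corresponding medians were −1.44 and 0.12. These comparisons share the CTRL libraries with each other and the Act or Act + FST libraries with the comparison that chose the genes, so the medians are a description.

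Targets and feedback inhibitors of SMAD signalling were higher without FST288. Of 23 genes tested in this group, 8 were higher in Act, none was lower, and the median log2 fold change was 0.34, compared with −0.00 for all genes tested. *Pmepa1*, which encodes a membrane protein that sequesters receptor-activated SMADs, had 756, 792 and 871 normalized counts in Act and 32, 21 and 10 in Act + FST. *Spsb1*, an adaptor of an E3 ubiquitin ligase that acts on the type II TGF-β receptor, had 532, 522 and 635 in Act and 35, 29 and 31 in Act + FST. Both genes were thus at least an order of magnitude higher in every Act library than in any Act + FST library. Their Act + FST values fell among those of CTRL (14, 50 and 9 for *Pmepa1*, 34, 43 and 22 for *Spsb1*), where replicate 2 was the highest. All Act + FST values were above those of FST (5, 9 and 5 for *Pmepa1*, 20, 22 and 19 for *Spsb1*). FST differed from CTRL by −1.47 (adjusted p = 0.72) and −0.62 (adjusted p = 0.79). The log2 fold changes were 5.33 ± 0.39 (SE, n = 3 per group, adjusted p = 2.3e-07) for *Pmepa1* and 4.11 ± 0.19 (adjusted p = 4.2e-09) for *Spsb1*.

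*Skil*, which encodes the SMAD co-repressor SnoN, was well detected in every group and differed less. It had 1451, 1367 and 1426 normalized counts in Act and 612, 468 and 434 in Act + FST, a log2 fold change of 1.5 ± 0.07. Among the members with lower counts, the inhibitory SMAD gene *Smad6* (63, 78 and 106 in Act, 12, 4 and 6 in Act + FST) differed by 3.41. *Ldlrad4*, an inhibitor of SMAD2/3 phosphorylation, and *Id3* differed by 1.22 and 1.26. The ubiquitin ligase genes *Smurf1* and *Smurf2* differed by 0.39 and 0.27, and both passed the adjusted p without reaching a fold change of 2. *Klf10*, a TGF-β early response gene, had means of 643 and 613 (normalized counts, log2 fold change 0.08, adjusted p = 0.40).

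Of 28 ligands, receptors and transducers of the pathway tested, none was called higher and 2 were called lower in Act, *Gdf15* and the co-receptor gene *Tgfbr3* (1 without replicate 3 of Act). This is 7.14%, near the share of all genes tested. By the adjusted p alone, 11 were higher and 7 lower, compared with 17 and 1 of the 23 SMAD targets. The median absolute log2 fold change was 0.23 for these components and 0.39 for the targets, and the difference between the lists was not tested. *Gdf15*, a stress-induced ligand distantly related to activin, had 84, 107 and 101 normalized counts in Act and 188, 228 and 249 in Act + FST, without overlap (−1.18 ± 0.08, adjusted p = 1.2e-07). *Acvr1b*, the type I receptor of activin A, had means of 640 in Act and 592 in Act + FST (0.11, adjusted p = 0.034), and the type II receptor genes *Acvr2a* and *Acvr2b* differed by 0.12 (adjusted p = 0.22) and 0.17 (adjusted p = 0.31). *Smad2* and *Smad3* differed by 0.14 and 0.33, with adjusted p-values of 0.022 and 0.0035, and *Smad4* by 0.00. *Inhba*, which encodes the activin A subunit itself, was near the lower limit of the data, with 7, 4 and 4 normalized counts in CTRL, 7, 7 and 3 in Act, 14, 11 and 8 in Act + FST and 15, 10 and 11 in FST. Act differed from CTRL by 0.12, Act + FST by 1.01 and FST by 1.13 (adjusted p = 0.81, 0.19 and 0.72), so the higher values were those of both groups with FST288. The Act and Act + FST values did not overlap, but the log2 fold change of −0.89 stayed under the threshold (adjusted p = 0.037).

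**Figure D2:**
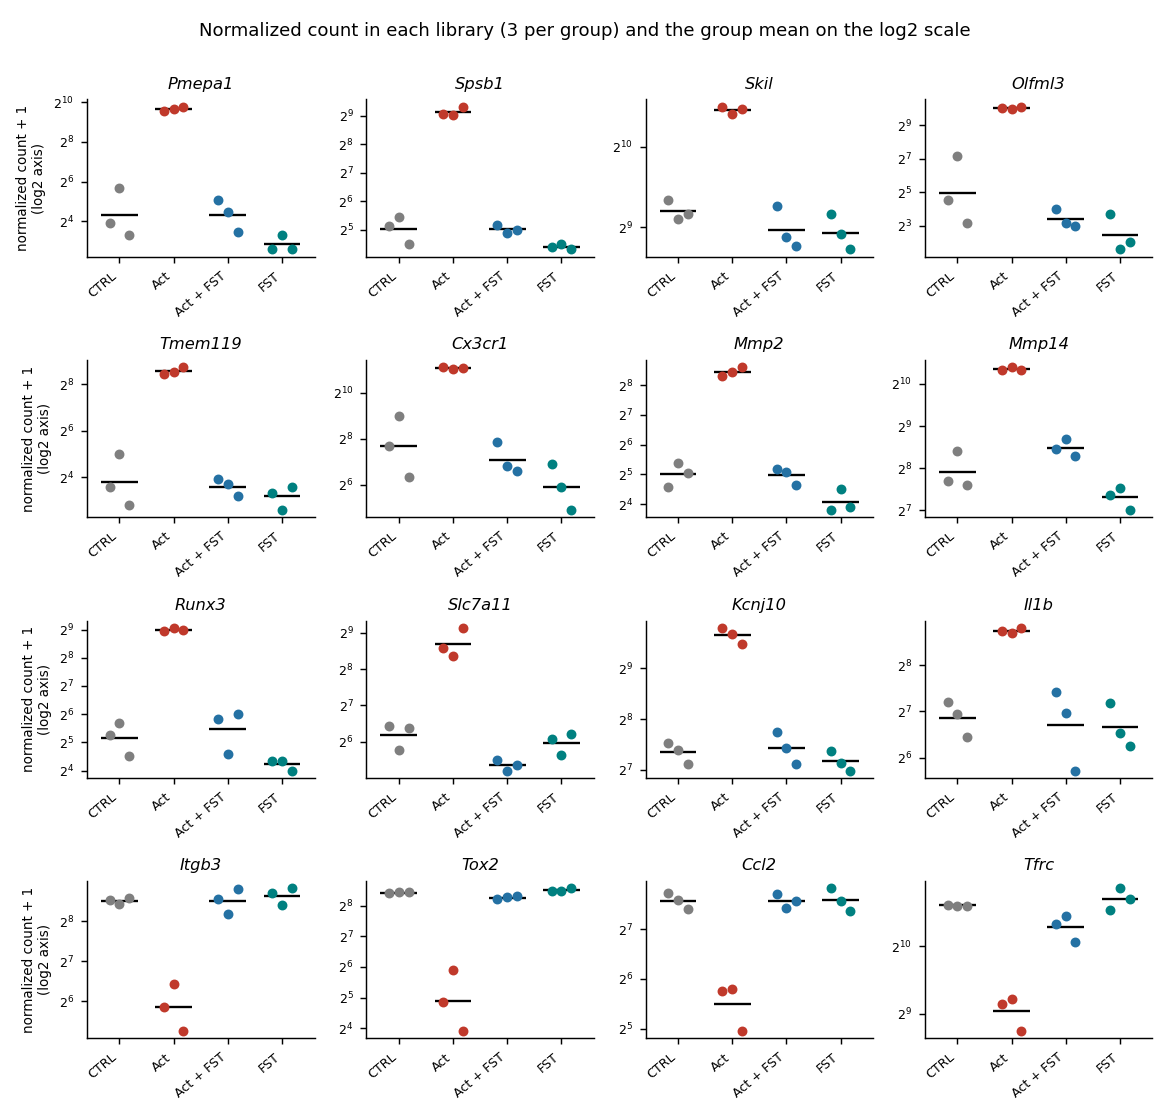
Normalized counts of 16 genes in each of the 12 libraries (points, 3 per group, plotted as count + 1 on log2 axes) with the group mean on the log2 scale (black line). In all 16 genes the Act libraries lay apart from the Act + FST libraries, above them for the first 12 genes and below them for *Itgb3*, *Tox2*, *Ccl2* and *Tfrc*.

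Several genes used to distinguish homeostatic microglia, macrophages of the brain that depend on TGF-β signalling, were among the strongest differences. Of 27 such genes tested, 5 were higher in Act and none was lower, with a median of 0.38. *Olfml3* (chr3:103722222-103738001, minus strand, mm10), which encodes a secreted olfactomedin-like glycoprotein, had 1055, 1008 and 1104 normalized counts in Act and 15, 8 and 7 in Act + FST. Its log2 fold change of 6.65 ± 0.68 (101-fold on the log2(value + 1) scale, adjusted p = 4.6e-06) was the largest among called genes with a mean of at least 50. *Tmem119*, a transmembrane marker of microglia, had 341, 364 and 422 in Act and 14, 12 and 8 in Act + FST (4.96 ± 0.42). *Cx3cr1*, the fractalkine receptor, had the highest counts among these genes, with 2207, 2123 and 2142 in Act and 233, 112 and 96 in Act + FST (3.98 ± 0.41). None of these groups of libraries overlapped. *Gpr84*, a receptor for medium-chain fatty acids, differed by 1.77. Other members of the signature differed less, and the purinergic receptor gene *P2ry12* (0.43) and *Fcrls* (0.38) passed the adjusted p without reaching a fold change of 2. *Trem2*, *Cst3* and *P2ry6* differed by 0.05, 0.06 and 0.01, with adjusted p-values of 0.27, 0.44 and 0.93. The remaining called gene, *Sparc*, rested on few counts (34, 4 and 4 in Act, 18, 1 and 0 in Act + FST) and its groups overlapped.

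The 250 bases before the transcription start of *Olfml3* are shown because it had the largest difference, from RefSeq (GRCm38.p6, chr3:103738002-103738251, minus strand). The window holds no match to the SMAD-binding motif CAGAC on either strand, which says only that these letters are not in this window. Shorter forms of the motif were not searched. Among genes with an entry, 46.4% of those higher in Act, 41.6% of those lower in Act and 40.2% of those tested and not called had a match, compared with 42.2% of all 32851 windows of this length.
Olfml3: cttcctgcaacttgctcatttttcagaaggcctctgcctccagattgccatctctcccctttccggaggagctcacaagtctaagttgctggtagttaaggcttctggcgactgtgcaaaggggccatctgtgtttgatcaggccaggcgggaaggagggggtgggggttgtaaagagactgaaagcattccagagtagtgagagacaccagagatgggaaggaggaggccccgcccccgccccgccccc

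Genes of the extracellular matrix and its turnover differed in both directions. Of 23 collagens and matrix glycoproteins tested, 9 were higher and 2 were lower in Act, and the median was 0.45. *Col15a1*, a basement membrane-associated collagen, had 283, 228 and 327 normalized counts in Act and 63, 37 and 62 in Act + FST, without overlap (2.37 ± 0.18, adjusted p = 2.6e-07). *Col14a1*, a fibril-associated collagen, had 65, 53 and 79 in Act, 4, 0 and 3 in Act + FST and 3, 2 and 2 in CTRL (4.60). *Fn1*, which encodes fibronectin, had 310, 282 and 359 in Act and 179, 64 and 41 in Act + FST. Its log2 difference was 0.79, 2.12 and 3.10 in the pairs of libraries numbered 1, 2 and 3. The CTRL libraries lay between, with 238, 159 and 105 normalized counts of *Fn1*. Compared with CTRL, *Fn1* differed by 0.99 in Act (adjusted p = 0.021), just under the threshold. The difference of Act + FST from CTRL was −1.01 (adjusted p = 0.17), and that of FST was −0.8 (adjusted p = 0.9). *Fbln5*, an elastic fibre protein, was lower in Act, with 22, 21 and 13 in Act and 150, 121 and 171 in Act + FST (−2.94 ± 0.19).

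Some members of this list were concentrated in libraries numbered 1. *Col1a2* had 109, 9 and 6 normalized counts in Act, 58, 0 and 4 in Act + FST and 24, 0 and 0 in CTRL, and *Postn* followed the same order, so that both overlapped between the groups. Of 12 fibroblast or stromal markers, 11 are listed, none at 0 in all libraries, and 6 were tested. Among these, *Col1a2*, *Postn* and *Pdgfrb* were higher and *Cxcl12* was lower in Act, and the summed level of the list was 111 to 342 in Act, 80 to 203 in Act + FST and 92 to 129 in CTRL. The part of stromal cells in the matrix genes was not tested. Without the replicate block 6 of the 23 genes were higher in Act, and without all libraries numbered 1 it was 7.

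Matrix proteases showed a similar split. Of 25 metalloproteinase and plasminogen system genes tested, 3 were higher and 3 lower in Act, with a median of 0.04. *Mmp2*, which encodes gelatinase A, had 313, 343 and 388 normalized counts in Act and 35, 33 and 24 in Act + FST (3.47 ± 0.20). *Mmp14*, the membrane-bound protease that activates pro-MMP2, had 1290, 1347 and 1288 in Act and 353, 411 and 311 in Act + FST (1.87 ± 0.11). Neither gene overlapped between the groups. *Mmp27* had 288, 331 and 209 in Act and 723, 757 and 717 in Act + FST, a log2 fold change of −1.43, and *Adamts1* and *Mmp15* were lower in Act at low counts.

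Among 20 integrin subunit genes, *Itgav* (1.08) and *Itgal* (1.06) were higher and *Itgb3* was lower in Act. The products of *Itgav* and *Itgb3* form the vitronectin receptor αvβ3, and its chains moved in opposite directions. *Itgav* had 1418, 1178 and 1156 normalized counts in Act and 745, 495 and 548 in Act + FST, whereas *Itgb3* had 57, 85 and 37 in Act and 374, 289 and 445 in Act + FST (−2.67 ± 0.23). The difference of *Itgal*, the αL chain of LFA-1, fell to 0.88 without replicate 3 of Act and to 0.96 without replicate 3 of Act + FST, and it was then no longer called. Without replicate 1 of Act + FST, 4 integrin genes were called higher. In the osteoclast differentiation list, which also holds *Itgb3*, the called genes *Src* (1.67), *Acp5* (1.37) and *Fosl2* (1.16) were higher in Act, out of 24 tested (12.5%). The share lower was 4.17%, near the 3.49% of all genes tested. The number lower was 2 instead of 1 without replicate 3 of Act or replicate 2 of Act + FST. *Acp5*, the tartrate-resistant acid phosphatase, had 189, 174 and 181 normalized counts in Act and 93, 67 and 54 in Act + FST.

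**Figure D3:**
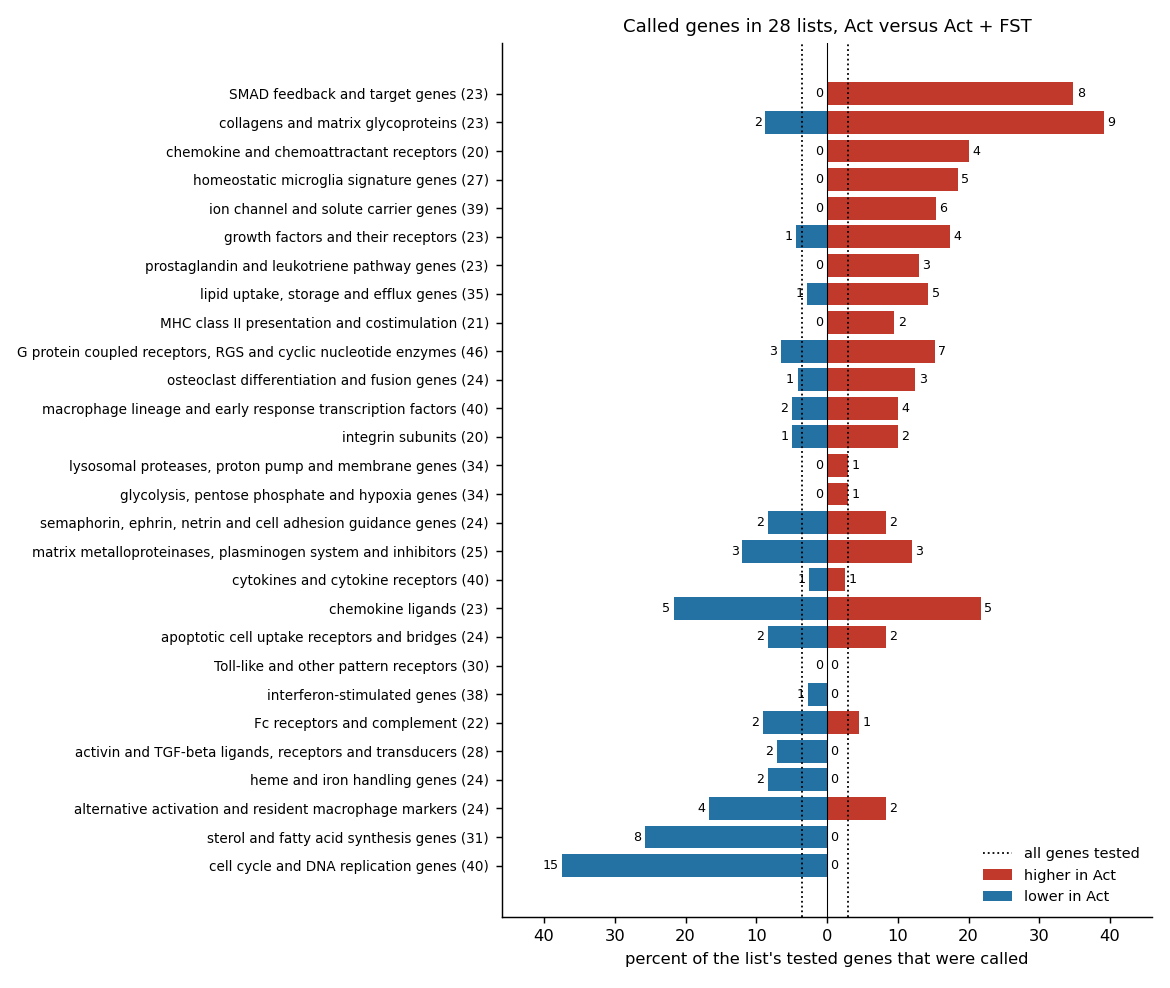
Percent of the genes tested in each of 28 lists that were called higher in Act (red, to the right) or lower in Act (blue, to the left), with the number of genes at the end of each bar and the number tested in brackets. Dotted lines mark 2.98% higher and 3.49% lower among all genes tested. Cell cycle and sterol genes extend only to the left, and SMAD targets only to the right.

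Chemokine ligands were called in both directions, 5 of 23 higher and 5 lower in Act (21.7% each, compared with 2.98% and 3.49% of all genes tested). The ligands of CCR2, which recruit monocytes, were lower. *Ccl7* had 26, 25 and 20 normalized counts in Act and 116, 117 and 126 in Act + FST (−2.30 ± 0.13), and *Ccl2* had 53, 55 and 30 in Act and 206, 171 and 188 in Act + FST (−2.06 ± 0.14). *Ccl12*, another ligand of this receptor, and *Ccl8* were lower as well (−1.10 and −2.75), and these 4 genes lie close together on chromosome 11. *Cxcl14*, a chemokine of epithelia and stroma, moved the other way, with 507, 502 and 517 in Act and 46, 20 and 55 in Act + FST (3.74 ± 0.43). The other 4 ligands higher in Act (*Ccl5*, *Ccl22*, *Ppbp* and *Cx3cl1*) differed by 1.01 to 1.37. Only 1 ligand was called higher without the replicate block or without replicate 3 of Act, and 2 were called without replicate 3 of Act + FST.

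Of 20 chemokine and chemoattractant receptors, 4 were higher in Act and none was lower. Besides *Cx3cr1*, these were the formyl peptide receptor genes *Fpr1* (1.17) and *Fpr2* (1.24), whose products sense bacterial and mitochondrial peptides, and *Ccr9* (1.13), which overlapped between groups. The count was 2 when replicate 3 of either group was left out. Of 40 cytokine and cytokine receptor genes tested, 1 was called higher and 1 lower in Act (5.0%, near the 6.47% of all genes tested), while 18 were higher and 6 lower by the adjusted p alone. *Il1b*, the inflammatory cytokine interleukin-1β, had 425, 410 and 445 normalized counts in Act and 169, 124 and 52 in Act + FST (2.04 ± 0.22). *Il10*, an anti-inflammatory cytokine, had 28, 36 and 20 in Act and 96, 98 and 85 in Act + FST (−1.73 ± 0.14), again without overlap. Among 23 growth factors and receptors, *Flt1* (VEGF receptor 1) differed by 2.72, and *Nrg1*, *Pdgfrb* and *Met* by 1.44, 1.19 and 1.04. *Hbegf*, an EGF receptor ligand, was lower (−1.49), but was not called without the replicate block. The share higher was 17.4%, compared with 2.98% of all genes tested, and the share lower was 4.35%, near the 3.49% of all genes. Without replicate 3 of Act + FST, 1 gene was called higher, and without replicate 3 of Act it was 2. The number lower was 3 without replicate 2 of Act and 2 without any 1 of the Act + FST libraries. *Met* differed by 0.95 without replicate 3 of Act and by 0.90 without replicate 3 of Act + FST.

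Of 40 transcription factors of the macrophage lineage and early response, 4 were higher and 2 lower in Act. *Runx3*, a TGF-β-responsive Runt factor, had 494, 534 and 502 normalized counts in Act and 56, 23 and 63 in Act + FST (3.52 ± 0.32). Its relative *Runx2* had 376, 296 and 326 in Act and 165, 108 and 108 in Act + FST (1.40 ± 0.10). The groups did not overlap in either gene, as the rule for named genes required. *Bhlhe40* (1.02) and the already described *Id3* were the other genes higher in Act. *Irf4*, a factor of alternative macrophage activation, was lower in Act (132, 155 and 130 against 450, 385 and 283, −1.40), as was *Klf2* (−1.01), and 1 gene was lower without replicate 3 of Act.

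Of 24 genes of alternatively activated and resident macrophages tested, 4 were called lower and 2 higher in Act, and 3 in each direction without all libraries numbered 1. *Cd163*, the scavenger receptor for haemoglobin-haptoglobin complexes, had 92, 107 and 62 normalized counts in Act and 244, 219 and 181 in Act + FST (−1.32 ± 0.13). *Folr2*, a folate receptor of resident macrophages, was lower by a similar amount (−1.25), as was *Cd209a* at low counts (−1.95). *Vsig4* and *Fn1* were the members higher in Act, and 4 were higher without replicate 2 of Act + FST and 1 without the replicate block. The transferrin receptor gene *Tfrc*, among the 5 called genes with the highest mean normalized count, had 565, 592 and 427 in Act and 1281, 1390 and 1068 in Act + FST (−1.24 ± 0.08, adjusted p = 9.5e-08). *Tfrc* and *Cd163* were the only called genes of 24 for heme and iron handling (8.33%, near the 6.47% of all genes tested). By the adjusted p alone 6 of these 24 were higher and 6 lower.

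Receptors for dying cells gave mixed results, with *Axl* and *Itgav* higher and *Itgb3* and *Tyro3* lower among 24 tested. A single gene was lower when replicate 3 of Act or replicate 1 or 3 of Act + FST was left out. *Axl*, a receptor tyrosine kinase that binds the bridging protein GAS6, had 2176, 2096 and 2140 normalized counts in Act and 984, 887 and 781 in Act + FST (1.28 ± 0.11), whereas *Mertk*, its family member, had means of 1751 and 1621 (0.11, adjusted p = 0.036). The MHC class II list had 2 called genes of 21 (9.52%, compared with 6.47% of all genes tested), *H2-Ob* (1.88) and *H2-Oa* (1.65), both higher in Act. They encode the chains of H2-O, which modulates peptide loading. The count was 4 without replicate 2 of either group and 1 without the replicate block. The gene of complement component C3, *C3*, had 2434, 1967 and 2259 normalized counts in Act and 1374, 1063 and 847 in Act + FST (1.04 ± 0.11). It dropped to 0.82 without replicate 3 of Act, under the threshold. The complement regulator gene *Cd55* and *C4b* were lower in Act (−1.36 and −1.42), which makes 1 higher and 2 lower of 22 Fc receptor and complement genes (13.6%).

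In the list of 39 transporters and channels, 6 were called higher in Act (15.4%, compared with 2.98% of all genes tested) and none lower. By the adjusted p alone 17 of the list were higher and 7 lower, and the median was 0.07. Outside the lists, the zinc importer gene *Slc39a12* was lower (−2.61) and the potassium channel gene *Kcnj9* was higher (3.04). *Slc7a11*, the cystine/glutamate exchanger xCT that supplies cysteine for glutathione, had 382, 327 and 562 normalized counts in Act and 44, 36 and 40 in Act + FST (3.34 ± 0.13, adjusted p = 1.1e-09). The inwardly rectifying potassium channel gene *Kcnj10* had 889, 813 and 712 in Act and 213, 171 and 138 in Act + FST (2.22 ± 0.06), with an adjusted p of 1e-10. Neither gene overlapped between the groups. *Kcna3*, *Slc7a2* (an arginine transporter), *Slc1a3* and *Trpm2* differed by 2.05, 1.25, 1.21 and 1.01. Of 23 prostaglandin and leukotriene genes, the synthases *Ptges* (2.02) and *Ptgs2* (1.44) and the 5-lipoxygenase gene *Alox5* (1.5) were higher in Act, and none was lower.

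Among 46 G protein-coupled receptors, RGS proteins and cyclic nucleotide enzymes, 7 were higher and 3 lower in Act. *Gprc5b*, an orphan receptor, had 6, 18 and 5 normalized counts in Act and 139, 99 and 77 in Act + FST (−3.47 ± 0.27), and its relative *Gprc5c* was lower too (−1.70). The prostaglandin E receptor gene *Ptger3* was lower by 1.61 in log2. Besides *Gpr84*, the adenosine receptor gene *Adora2a* (2.65), *Gpr171* (1.72), *Gpr35* (1.24), the histamine receptor gene *Hrh1* (1.05) and the phosphodiesterase genes *Pde4d* (1.2) and *Pde3b* (1.07) were higher. In the guidance and adhesion list, *F11r*, which encodes junctional adhesion molecule A, had 412, 420 and 463 normalized counts in Act and 33, 37 and 45 in Act + FST (3.47 ± 0.27). *Plxna4* was higher (1.96), whereas *Ntn1* (−2.31) and the δ-catenin gene *Ctnnd2* (−3.41) were lower, out of 24 tested. This is 8.33% in each direction, compared with 2.98% higher and 3.49% lower among all genes tested. *Cav1*, the main structural protein of caveolae and in none of the lists, had 214, 156 and 254 normalized counts in Act and 26, 5 and 16 in Act + FST (3.87 ± 0.41).

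The largest falls outside the lists included a nuclear factor, a cytokine and a pair of uncharacterised loci. *Tox2*, an HMG-box transcription factor, had 28, 58 and 14 normalized counts in Act and 295, 306 and 314 in Act + FST (−3.37 ± 0.28). *Tslp*, an epithelial cytokine that acts on dendritic cells, had 12, 16 and 4 in Act and 97, 103 and 87 in Act + FST (−3.22 ± 0.24). *Gm10419* (−3.02) and *Gm42517* (−3.13) overlap at their ends on opposite strands of chromosome 5. The strand setting of the counting is not given in the sources used here, so how reads in the shared stretch were counted is not known. Without replicate 3 of Act, *Gm42517* differed by −2.43. *Pimreg* (−3.28) and *Kntc1* (−3.19), which act in mitosis, were highest in replicate 3 of Act + FST, with 253 normalized counts against 50 and 50 and with 246 against 67 and 43. Without that library the differences were −2.74 and −2.41.

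Cell cycle genes were lower in Act than in Act + FST. Of 40 tested, 15 were called lower and none higher, and the median was −0.58. By the adjusted p alone, at any fold change, 32 were lower and none higher, compared with 15.4% and 17.1% of all genes tested. *Ccna2* (cyclin A2) had 46, 43 and 57 normalized counts in Act, 196, 147 and 530 in Act + FST, and 246, 232 and 200 in CTRL. *Ccnb1* (cyclin B1) had 22, 8 and 21 in Act and 63, 44 and 209 in Act + FST, and the mitotic kinase gene *Plk1* had 33, 27 and 31 against 97, 74 and 327. The Act libraries lay below the Act + FST libraries in all 3 genes, and replicate 3 of Act + FST was the highest of all 12 libraries. With all libraries the log2 fold changes were −2.34, −2.35 and −2.10, and without that replicate they were −1.84, −1.79 and −1.53 (adjusted p = 9.5e-08, 0.00014 and 3.1e-06). The number of cell cycle genes called lower was then 12. *Ccnd1* (cyclin D1), which responds to growth factors, did not stand out in that library, with 233, 183 and 106 in Act and 553, 393 and 576 in Act + FST (−1.59 ± 0.18).

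Some markers of other bone marrow cells were lower in Act together with the cell cycle genes. *Mpo*, the myeloperoxidase of granulocyte precursors, had 15, 42 and 15 normalized counts in Act, 98, 129 and 57 in Act + FST and 80, 162 and 54 in CTRL (−2.03 ± 0.17, adjusted p = 7.8e-07). *Elane*, a serine protease of the same precursors, differed by −1.52, *Kit*, the receptor of stem cell factor, by −1.21 and *Klf1*, an erythroid transcription factor at very low counts, by −1.09. The Act and Act + FST libraries did not overlap in these 4 genes. *Mpo* and *Elane* were the called members of 10 neutrophil markers, whose summed level was 1083 to 1759 in Act and 1192 to 1889 in Act + FST. *Kit* was the single mast cell or basophil marker tested, with sums of 17 to 45 and 44 to 68 over the 6 markers listed. *Klf1* was 1 of 3 erythroid or megakaryocyte markers tested, with sums of 298 to 367 and 294 to 334 over 4 listed. None of these lists had a marker at 0 in all libraries. The part of other cells in the cell cycle difference was not tested.

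The windows upstream of 4 cell cycle genes called lower in Act are shown because these genes moved together, taken in order of their differences from those whose window lies wholly before the gene. Capitals mark the CCAAT box (CCAAT or its reverse complement ATTGG) and the core of the cell cycle homology region (TTTGAA or TTCAAA), searched on both strands, and the motifs do not overlap each other in these windows. Of the 15 genes called, 11 had an entry in the RefSeq table, and 9 of them (81.8%) held a CCAAT box, compared with 61.9% of 21 cell cycle genes tested and not called and with 33.8% of all 32851 windows. TTTGAA was found in 36.4%, 19.0% and 16.0%, respectively. A match is a description of the sequence and not of binding. The windows are *Plk1* at chr7:122159185-122159434 on the plus strand, *Ccnb2* at chr9:70421555-70421804 on the minus strand, *Birc5* at chr11:117848987-117849236 on the plus strand and *Kif11* at chr19:37376132-37376381 on the plus strand (GRCm38.p6). *Ccnb2* held 3 CCAAT boxes and *Plk1* and *Kif11* held 1 each, and the window of *Birc5* held neither motif, although it was lower in Act by 1.88 in log2.
Plk1: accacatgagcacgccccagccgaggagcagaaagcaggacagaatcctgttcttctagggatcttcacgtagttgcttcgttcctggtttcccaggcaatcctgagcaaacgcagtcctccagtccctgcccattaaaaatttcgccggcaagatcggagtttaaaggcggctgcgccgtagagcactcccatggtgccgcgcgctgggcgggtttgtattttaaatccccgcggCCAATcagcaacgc
Ccnb2: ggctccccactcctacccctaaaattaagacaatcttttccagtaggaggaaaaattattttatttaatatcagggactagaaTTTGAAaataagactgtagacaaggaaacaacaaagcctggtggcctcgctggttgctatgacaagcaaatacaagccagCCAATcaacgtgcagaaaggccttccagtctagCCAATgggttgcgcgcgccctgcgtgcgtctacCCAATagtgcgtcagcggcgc
Birc5: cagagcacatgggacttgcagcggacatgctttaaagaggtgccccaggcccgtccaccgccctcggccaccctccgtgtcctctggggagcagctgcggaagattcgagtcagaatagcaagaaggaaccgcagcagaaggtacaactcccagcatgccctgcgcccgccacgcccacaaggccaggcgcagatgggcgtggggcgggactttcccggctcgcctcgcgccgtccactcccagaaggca
Kif11: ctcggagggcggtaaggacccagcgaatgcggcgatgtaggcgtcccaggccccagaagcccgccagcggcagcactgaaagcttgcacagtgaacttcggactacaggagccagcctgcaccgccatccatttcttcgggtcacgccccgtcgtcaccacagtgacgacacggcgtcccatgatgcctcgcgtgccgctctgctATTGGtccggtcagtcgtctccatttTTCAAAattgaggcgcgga

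Genes of sterol and fatty acid synthesis followed the same direction. Of 31 tested, 8 were lower in Act and none was higher, the median was −0.70, and 25 were lower by the adjusted p alone. *Scd1*, the stearoyl-CoA desaturase, had 32, 43 and 44 normalized counts in Act and 152, 158 and 556 in Act + FST (−2.57 ± 0.23). *Sqle*, the squalene epoxidase, had 140, 152 and 191 against 415, 428 and 664 (−1.61 ± 0.06). The groups did not overlap in either gene, and libraries numbered 3 were highest in all 4 groups. Without replicate 3 of Act + FST, 7 genes were called lower, and *Scd1* differed by −2.17. Of 35 lipid uptake, storage and efflux genes tested, 1 was lower in Act (2.86%, near the 3.49% of all genes tested) and 5 were higher (14.3%). Those higher were led by the oxidized LDL receptor gene *Olr1* (3.56) and the apolipoprotein genes *Apoc4* (2.76) and *Apoc1* (1.92). The number higher was 3 without replicate 3 of Act or replicate 1 of Act + FST.

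**Figure D4:**
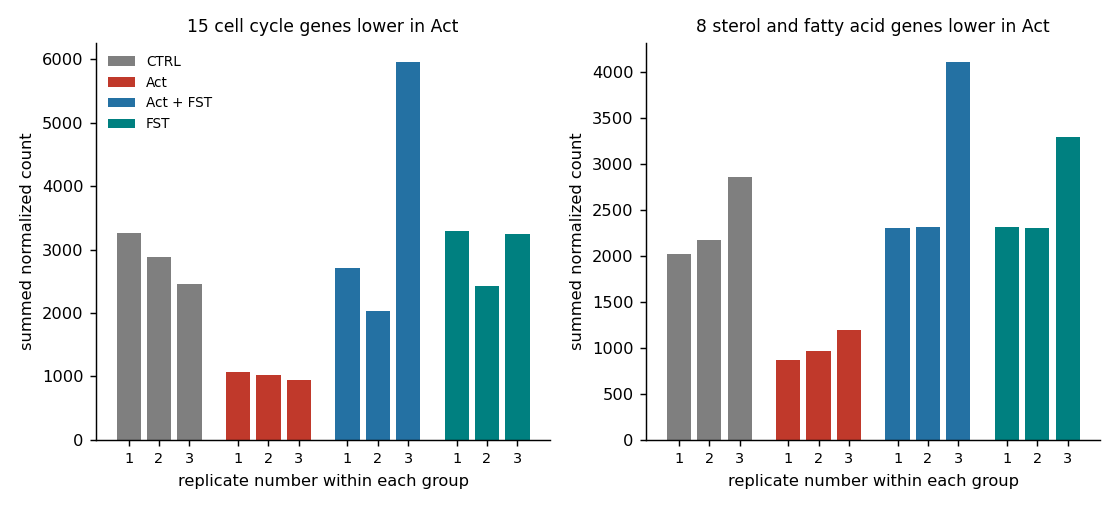
Summed normalized counts of the 15 cell cycle genes (left) and the 8 sterol and fatty acid genes (right) called lower in Act, with a bar for each library and groups in colour. All 3 Act libraries lay below every other library in both panels, and replicate 3 of Act + FST was the highest, with 5967 and 4112.

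Few interferon-stimulated genes and pattern receptors were called (2.63% and 0.0%, compared with 6.47% of all genes tested). The interferon share, all of it lower in Act, was near the 3.49% lower among all genes. The differences in share were not tested. Of 38 interferon-stimulated genes, *Ifitm6* was lower in Act (42, 77 and 68 against 130, 127 and 115 normalized counts, −1.02 ± 0.18) and none was higher. However, 35 of the 38 had a negative log2 fold change, and the median was −0.29. By the adjusted p alone 17 were lower and none higher, compared with 15.4% and 17.1% of all genes tested. *Rsad2* (−0.65), *Cmpk2* (−0.67) and *Oas2* (−0.59) were among these. The median of the same genes relative to CTRL was 0.37 in Act + FST, 0.14 in Act and 0.26 in FST. By the adjusted p alone 8 of them were higher in Act + FST than in CTRL, among them *Oas3* (0.75, adjusted p = 0.049) and *Ifi44* (1.28, adjusted p = 0.023). None passed the adjusted p in FST versus CTRL. All 3 medians use the same CTRL libraries. *Ifitm6* was not called without replicate 1 of either group. Among 30 Toll-like and other pattern receptors no gene was called in either direction. By the adjusted p alone 14 of these were higher and 3 lower in Act, compared with 17.1% and 15.4% of all genes tested. Lists for lysosomal genes (*Ctse*, 1.14, of 34) and for glycolysis and hypoxia (*Egln3*, 1.97, of 34) each had 1 gene called, higher in Act. This is 2.94% of each list, near the 2.98% higher among all genes tested. *Egln3* overlapped between the groups and was not called without the replicate block. Each list had 1 gene lower when single libraries were left out, replicate 2 of Act + FST for the lysosomal genes and replicate 1 or 2 of either group for the glycolysis genes.

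The Act + FST libraries lay entirely above those of CTRL in 17 and entirely below in 31 of the 426 genes higher in Act, and in 31 and 16 of the 500 genes lower in Act. For comparison, 3.67% of all genes tested had Act + FST libraries entirely above CTRL and 3.02% entirely below. The choice of the genes by Act versus Act + FST favours low Act + FST values in the 426 and high ones in the 500. The counts are therefore a description. *Slc7a11* was lower in Act + FST (44, 36 and 40 normalized counts) than in CTRL (85, 54 and 83), by 0.85 in log2 with an adjusted p of 0.023, while it was 2.49 higher in Act than in CTRL. *Mmp14* was above CTRL in Act + FST (0.57, adjusted p = 0.045), with 353, 411 and 311 against 207, 341 and 193. *Cpe*, the prohormone-processing carboxypeptidase E, had 83, 72 and 78 in CTRL, 11, 5 and 7 in Act and 58, 27 and 40 in Act + FST, and remained under CTRL (−0.95, adjusted p = 0.047). *Gabbr2*, a GABA-B receptor subunit, differed in another way. It had 76, 60 and 47 in CTRL, 72, 58 and 54 in Act, 39, 28 and 18 in Act + FST and 58, 58 and 46 in FST, so that Act + FST alone lay below all other groups (−1.12 relative to CTRL, adjusted p = 0.013). Without replicate 3 of Act + FST its difference from Act was 0.98, under the threshold. *Acod1*, which makes itaconate, *Plcb4* and *Gm4951* had Act + FST libraries above all CTRL libraries, and *Ksr2* had them below, but their log2 differences from CTRL of 0.92, 0.74, 0.89 and −1.22 had adjusted p-values between 0.054 and 0.33.

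**Figure D5:**
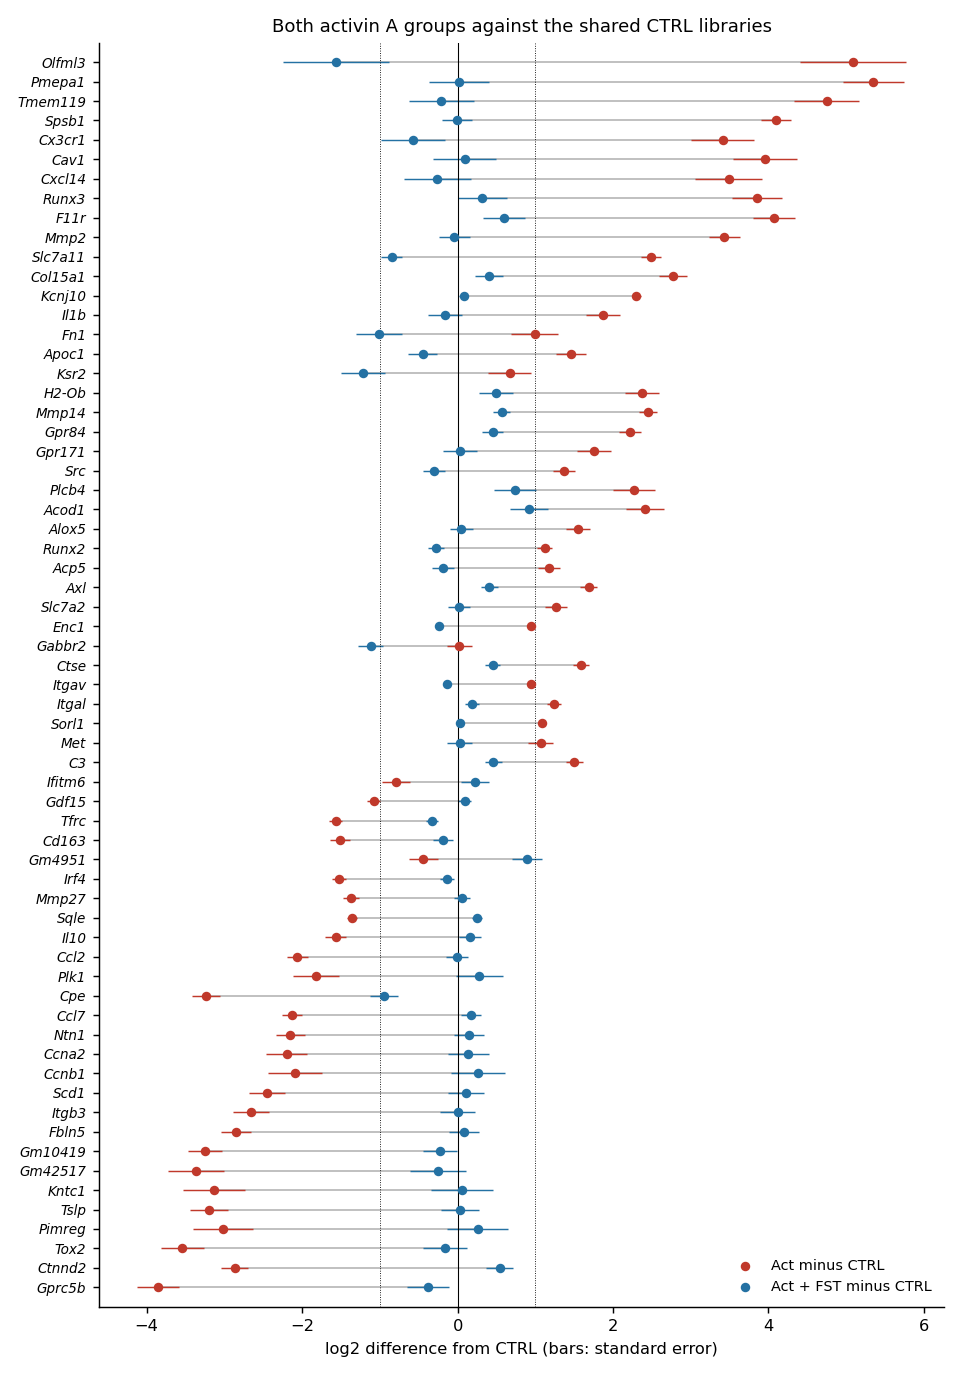
Log2 differences from CTRL in Act (red) and in Act + FST (blue) for named genes called in Act versus Act + FST, with standard errors as bars and dotted lines at a fold change of 2. Both differences use the same 3 CTRL libraries. Blue points cluster around 0, and the exceptions with the largest distance from 0 are *Olfml3* (−1.56, adjusted p = 0.46), *Ksr2* (−1.22) and *Gabbr2* (−1.12).

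The 5 called genes with the highest mean normalized counts had log2 fold changes between −1.24 and 1.28. *Sorl1*, a sorting receptor of the endolysosomal system, had 2630, 2447 and 2358 normalized counts in Act and 1345, 1277 and 1000 in Act + FST (1.05 ± 0.05), and differed by 0.99 and 0.97 without replicate 3 of Act and of Act + FST. *Enc1*, an actin-binding kelch protein, had 1921, 1864 and 1907 in Act and 885, 873 and 749 in Act + FST (1.19 ± 0.05), and Act + FST was slightly below CTRL (−0.24, adjusted p = 0.049). The other genes with the highest means, *C3*, *Tfrc* and *Axl*, differed from CTRL in Act + FST by 0.46, −0.33 and 0.41, with adjusted p-values between 0.087 and 0.13. Whether reads that share a start position were counted once is not given in the sources used here. Under a correction for such counting, added after the values were seen, *Axl* differed by 1.52 instead of 1.28, *C3* by 1.26 instead of 1.04, *Enc1* by 1.4 instead of 1.19, *Sorl1* by 1.14 and *Tfrc* by −1.34.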

How the data were processed

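Single-end RNA sequencing of BMDMs covered 12 libraries, 3 in each of the 4 groups. For each gene the authors deposited a score that is a normalized count: reads were trimmed (Trimmomatic 0.39), aligned to mm10 (STAR 2.7.9a), counted per gene (featureCounts 2.0.2), scaled for each library and rounded to whole numbers. The authors used DESeq2 1.30.0 for their own tests. The scaling formula and the strand setting of the counting are not given in the sources used here. Scaled totals do not show the original depth, and counting error, which is part of the spread between libraries, weighs most on genes near the mean of 5.

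Because the values are not raw counts, log2(normalized count + 1) was fitted in R 4.3.3 with limma 3.58.1 (moderated variances with a mean trend, two-sided, Benjamini-Hochberg adjustment over 14318 genes), in 1 model of 4 group means and the replicate number as a block. Fold changes on this scale understate those of genes with low values. The numbers come from the labels, and same-numbered libraries of Act and Act + FST deviated from their group means together (r across genes 0.157 to 0.363 in 3 pairs). In simulated data of 14346 genes, 199 of 200 genes changed 3-fold (99.5%) were recovered in this comparison, with 1 false call. The simulation gave every gene the same dispersion, changed no gene with a low mean and held no outlying library. These values thus check the code and do not measure the accuracy of the real comparison.

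The gene lists, the markers and the rule for named genes were chosen with earlier results of these data known. The rule names called genes with a mean of at least 50: the 8 largest rises and 8 largest falls without overlap, up to 3 of each of 28 lists, 3 each with Act + FST above or below all CTRL libraries, the 5 with the highest mean, and activin receptor and ligand genes. Others are named from counts, after their values were seen. Some genes that the rule names are not reported here. Gene positions are those of the deposited table, and 250-base promoter windows were read from the RefSeq table for GRCm38.p6. Alternatives were other pseudocounts (0.5 and 5), filters, scalings and thresholds, no replicate block, only the 6 libraries compared, and leaving out each library or all libraries numbered 1. A correction for shared start positions of reads was added after the values were seen, because the highest mean reached 0.883 normalized counts per exonic base.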

Additional observations from a re-analysis of the deposited data

How the results depend on the processing

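The counts of 426 genes higher and 500 lower in Act kept within 1.5 times under most alternatives, and none of the 67 named genes that were called changed direction in any of them. Without the replicate block, 390 genes were higher and 445 lower, and all 835 were also called with the pairing of replicate numbers. A mean of at least 50 left 175 and 213 genes of 10634 tested, a fold change threshold of 1.5 gave 732 and 830, and testing against a fold change of 2 gave 128 and 96, each of which follows from the construction of the alternative. Leaving out 1 library at a time gave 369 to 444 genes higher and 448 to 541 lower, and leaving out all libraries numbered 1 gave 438 and 442. Quantile normalization gave 438 and 445, median of ratios scaling 424 and 502, a pseudocount of 5 gave 354 and 364, and no filter 527 and 545. The correction for shared start positions, added after the values were seen, gave 438 and 513, and *Cx3cr1* had the largest shift among the named genes, from 3.98 to 4.40. Of 67 named genes called, 24 were not past the threshold when tested against a fold change of 2, the cause being the stricter test, and 4 each without replicate 3 of Act and of Act + FST. Counts for small lists moved more, and those that changed by over 1.5 times without a library stand beside the lists. Precision is limited at low values: 251 of the 426 and 287 of the 500 genes had means under 50.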

Other observations

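Outside the 28 lists, the largest differences among called genes with a mean of at least 50 included further genes of several functions, chosen here after their values were seen. *Pald1* had 792, 742 and 833 normalized counts in Act and 85, 46 and 81 in Act + FST (3.51 ± 0.29), and *Ptgfrn*, a tetraspanin partner that binds the prostaglandin F receptor, had 1100, 1101 and 1096 in Act and 213, 130 and 86 in Act + FST (3.03 ± 0.16). *Arg2*, the mitochondrial arginase, was higher in Act (3.02), as were the Notch ligand gene *Jag1* (2.44), the transcription factor gene *Sox4* (2.53), the acute phase gene *Saa3* (2.45) and the G protein-gated potassium channel gene *Kcnj9* (3.04). The libraries of Act and Act + FST did not overlap in these genes, which was a condition of their choice. *Saa3* had 17, 38 and 10 in CTRL and 35, 43 and 39 in Act + FST.

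Among the falls were the oxysterol-binding protein gene *Osbp2* (30, 43 and 20 in Act, 218, 202 and 292 in Act + FST, −2.94 ± 0.23), the tropomodulin gene *Tmod1* (67, 88 and 34 against 430, 438 and 433, −2.87 ± 0.21), the neuronal adhesion gene *Nrcam* (−2.81), the coronin gene *Coro2b* (−2.62) and *Dio2* (−2.65), which encodes an enzyme that activates thyroid hormone. *Slc39a12*, a zinc importer, had 22, 23 and 14 in Act and 117, 121 and 130 in Act + FST (−2.61). The other 6 of the 12 falls (*Kif2c*, *Kif4*, *Nek2*, *Aspm*, *Kif14* and *Cenpf*) encode mitotic proteins. All 6 were highest in replicate 3 of Act + FST, and leaving it out moved *Kif14* from −2.65 to −1.83 and *Kif2c* from −2.91 to −2.33.

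By the KEGG terms in the deposited table, 242 pathways had at least 20 genes tested, and 6.96% of the genes with a term were called. The extracellular matrix-receptor interaction pathway had 8 genes higher and 4 lower in Act of 44 tested (27.3%), cytokine-cytokine receptor interaction 12 and 14 of 135 (19.3%), and arachidonic acid metabolism 3 and 4 of 33 (21.2%). The cell cycle pathway had 16 genes lower and none higher of 118 (13.6%). The TGF-beta signaling pathway had 3 genes higher and none lower of 54 (5.56%), and fatty acid metabolism 1 lower of 46 (2.17%). No gene was called in 33 of the pathways. These shares are a description, since pathways share genes.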
